A study of Mus musculus with 16 samples.

Results

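The 6 genes of the aryl hydrocarbon receptor pathway described here were measured in differentiating mouse embryonic stem cells (mESCs) treated with a hawthorn extract or with one of its fractions. These were Ahr, Arnt, Ahrr, Tiparp, Cyp1a1 and Cyp1b1, chosen by name as the receptor, its partner, its repressor and 3 of its target genes. They were represented by 9 of 60273 gene probes on the array. The array names most probes by an accession only. The gene name in the scanner files itself gave 2 of the 9 probes, one for Ahr and one for Arnt, and the other 7 were found by matching the accession to RefSeq. The cells belonged to CGR8-Myh6-GFP, one mESC line that carries GFP under the promoter of the heart muscle gene Myh6. They differentiated in medium without LIF, by a protocol that the paper calls spontaneous, in an assay of cardiomyocyte formation. From day 4 on they received the vehicle DMSO, 0.25 mg/ml of WS1442, which is an extract of hawthorn leaves with flowers, or 0.1 mg/ml of MeOH eluate, the methanol fraction of that extract, which is rich in oligomeric procyanidins. RNA was taken after 6 h or 24 h. At each time point 2 arrays held DMSO samples, 3 held WS1442 samples and 3 held MeOH eluate samples, which makes 16 arrays in 6 groups. The labels number the replicates without saying that they were separate differentiations, so p-values measure only the spread between these samples. The doses of the treatments differed, and a difference between them in composition and in dose cannot be told apart. The arrays of 6 h shared one slide and those of 24 h another, so levels were compared only within a time point.

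The aryl hydrocarbon receptor is a transcription factor of the bHLH-PAS family that is switched on by small planar molecules, among them dioxins, tryptophan derivatives and many plant flavonoids. Without a ligand it is held in the cytoplasm by the chaperone Hsp90, with co-chaperones such as Ptges3. With a ligand it enters the nucleus, pairs with Arnt and binds DNA at response elements built around the core GCGTG. Cyp1a1 and Cyp1b1, which encode oxidising enzymes of foreign compounds and steroids, are its classical targets, and so are Ahrr and Tiparp, which both dampen the receptor. Ahrr competes for Arnt, and Tiparp is an ADP-ribosyltransferase that modifies the receptor itself.

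The promoters of the target genes are shown because the response element core lies in them. RefSeq windows on build GRCm38.p6, each running from 250 bases before to 50 bases after a gene's start, were at hand for 5 of the 6 genes, Ahr having none. Each of these 5 windows held GCGTG or its reverse complement CACGC, as did 32.4% of all 32851 windows searched. Ahrr had 3 matches, as 3.91% of all windows had at least, and Arnt, Tiparp, Cyp1a1 and Cyp1b1 had 1 each. All of them lay upstream of the start, at 107, 82 and 27 bases before it in Ahrr, 29 in Arnt, 170 in Tiparp, 54 in Cyp1a1 and 76 in Cyp1b1. A match of these letters is not a measured binding site. The 250 upstream bases of the 3 target genes that could be measured follow, 5′ to 3′ on the strand of the gene, with the core in capitals. They are Cyp1b1 at chr17:79715062-79715311 (minus strand), Tiparp at chr3:65528197-65528446 (plus strand) and Ahrr at chr13:74292332-74292581 (minus strand).
Cyp1b1: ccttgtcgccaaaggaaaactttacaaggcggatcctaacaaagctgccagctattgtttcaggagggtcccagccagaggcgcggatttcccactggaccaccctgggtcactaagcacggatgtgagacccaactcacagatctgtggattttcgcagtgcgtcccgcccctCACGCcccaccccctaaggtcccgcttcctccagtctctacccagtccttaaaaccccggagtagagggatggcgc
Tiparp: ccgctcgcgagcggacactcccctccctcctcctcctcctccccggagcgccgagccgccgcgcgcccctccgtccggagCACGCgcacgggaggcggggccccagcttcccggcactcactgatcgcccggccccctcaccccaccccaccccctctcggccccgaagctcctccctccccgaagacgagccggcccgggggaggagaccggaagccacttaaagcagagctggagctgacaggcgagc
Ahrr: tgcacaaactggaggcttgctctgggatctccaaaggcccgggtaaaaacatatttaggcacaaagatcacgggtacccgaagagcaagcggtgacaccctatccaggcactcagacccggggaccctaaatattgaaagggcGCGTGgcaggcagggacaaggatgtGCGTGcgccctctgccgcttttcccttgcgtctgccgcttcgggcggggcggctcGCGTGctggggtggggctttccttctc

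What an array measures is the brightness of a probe, so the probes behind the main values are identified here by their first 30 bases. They belong to probes of 56 bases for Ahr, 55 for Cyp1b1, 50 for Tiparp and 55 for Cyp1a1.
Ahr: ttaggtctacatagctccttgctgtccttt
Cyp1b1: ctacattaagcagatagatcaccatgtatg
Tiparp: acagaagtccttccgataccaagctctcct
Cyp1a1: acagcttcacacttatcactaatggcaaga

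Intensities are given in arbitrary units after quantile normalization over all 16 arrays, and differences as log2 ratios with their standard error (SE). A difference was called when its p-value, adjusted over 36718 probes with limma and the Benjamini-Hochberg method, was under 0.05. A probe entered this test if the scanner's software found it well above background on each array of at least 1 group. Of the member probes, 6 passed on all 16 arrays, 2 of them for Arnt and 1 each for Ahr, Ahrr, Tiparp and Cyp1b1. Cyp1a1, the second Ahr probe and the third Arnt probe did not pass. Where groups are said below not to overlap, or to lie above or below each other on all arrays, this describes the arrays shown and is not a test. The share of all genes whose groups part in the same way was not counted.

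The arrays as a whole were alike in quality. Between 55.1% and 63.0% of the gene spots of an array were well above background. RNA integrity numbers ranged from 8.6 to 10, the lowest being that of WS1442 24 h replicate 2. The dye content of the labelled RNA at 24 h moved with the treatment, at 25.8 and 26.1 pmol Cy3 per microgram with DMSO, 31.8 to 32.8 with WS1442 and 27.1 to 30.3 with the MeOH eluate. At 6 h it was 23.5 and 26.4 with DMSO, 26.5 to 27.6 with WS1442 and 24.7 to 29.5 with the MeOH eluate. WS1442 lay above DMSO there too, and the lowest value of all arrays was that of DMSO 6 h replicate 1. The part of the dye content in the results at 6 h and at 24 h was not tested. Markers of several cell types were present. Pou5f1, a marker of pluripotent cells, had mean intensities of 7347 to 13420 in the 6 groups. Nanog, Sox2 and Zfp42 of the same list had means of 37.3 to 242.9. Myh6, the gene behind the reporter, was above background on 3 of 16 arrays, and the liver genes Ttr and Alb on 0. The other markers of those lists were above it on 16 arrays. These were the cardiac Gata4, Isl1, Nkx2-5, Mef2c and Tnnt2, and Sox17, Foxa2 and Afp of endoderm and liver. The summed intensity of 6 markers of primitive streak and mesoderm at 6 h was 3860 to 3873 with DMSO, 2752 to 3052 with WS1442 and 1933 to 2034 with the MeOH eluate. At 24 h it was 3230 to 3250, 2617 to 2741 and 2103 to 2332. The markers did not move as 1 group. With WS1442 at 6 h 2 of the 6 were called lower, Mixl1 by -0.99 and Eomes by -0.39, while Pdgfra read 0.41 and Mesp1 0.16 above DMSO without a call. The sum of 3 neuroectoderm markers at 24 h was 2580 to 2610 with DMSO, 4143 to 4681 with WS1442 and 3396 to 4152 with the MeOH eluate. This sum is mostly Nes, with means of 2496, 4269 and 3695, beside means of 14.4 to 112 for Sox1 and Pax6. Of the 3 markers, 3 were called higher with WS1442 and 2 with MeOH eluate. The sum of the 5 tested markers of cardiac progenitors and cardiomyocytes, of 6 in the list, also parted the groups at 24 h, at 1076 to 1103 with DMSO, 828 to 963 with WS1442 and 530 to 622 with the MeOH eluate. Of these 5, 3 were called lower with MeOH eluate (Gata4 by -1.38, Isl1 by -0.57 and Tnnt2 by -0.51), and with WS1442 2 were called lower (Gata4 and Tnnt2) and 1 higher (Mef2c). In such bulk RNA, fewer cells of a type and less RNA per cell cannot be told apart, and the part of these cell types in the results below was not tested.

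**Figure D1:**
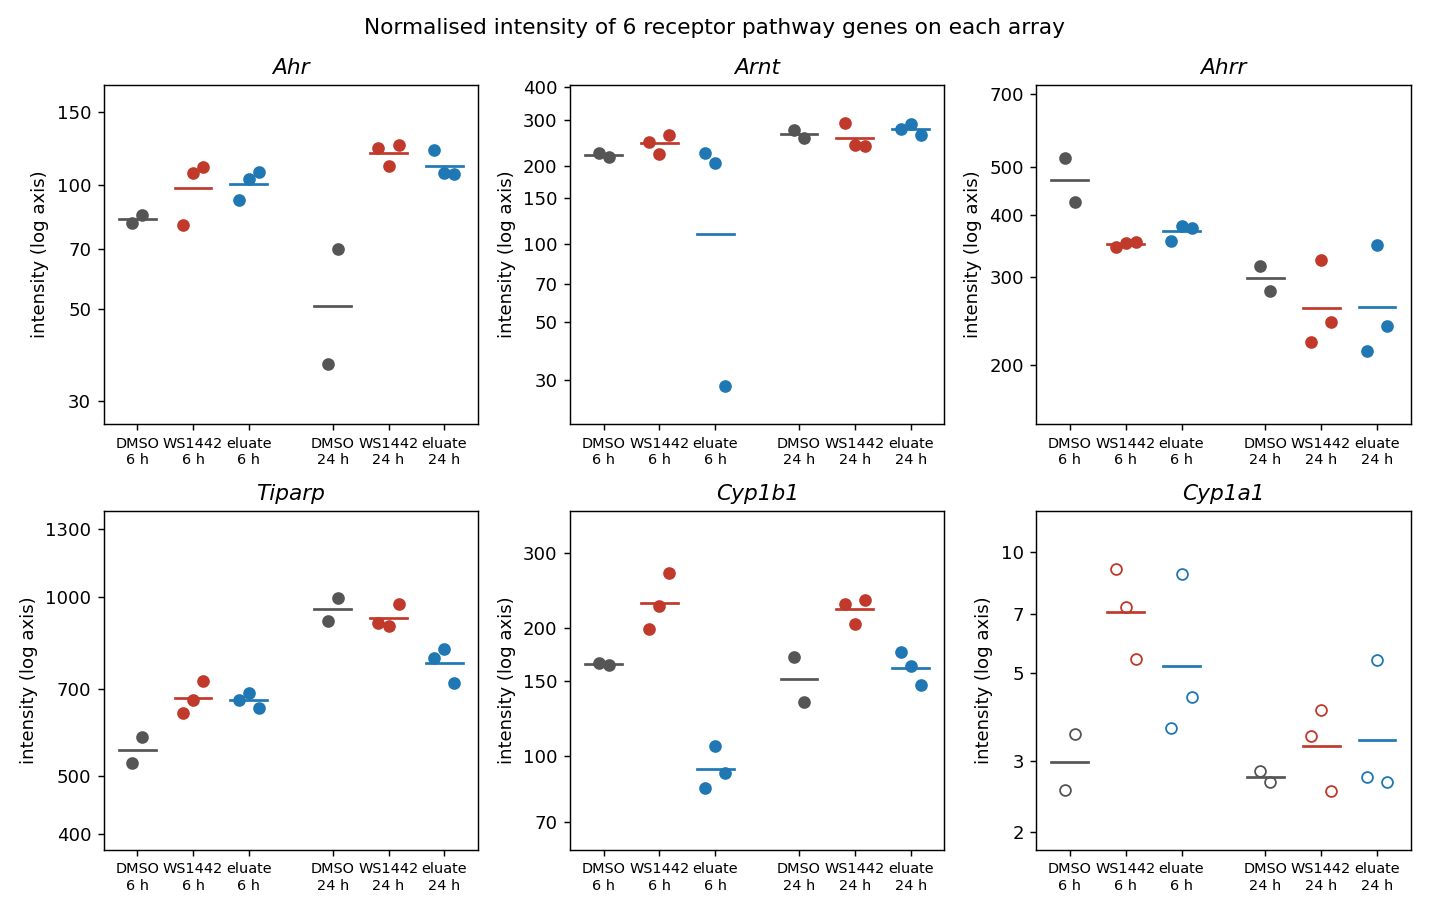
Normalised intensity (log axis, arbitrary units) of the brightest probe of each of the 6 genes on each of the 16 arrays. Each point is 1 array, open where the probe was not well above background, and the line is the geometric mean of the group; Cyp1b1 at 6 h lay highest with WS1442 and lowest with MeOH eluate, and Ahr at 24 h was low on both DMSO arrays.

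Cyp1b1 separated the whole extract from its eluate. At 6 h its intensity was 166 and 164 with DMSO, 199, 226 and 270 with WS1442 and 84.4, 106 and 91.5 with the MeOH eluate. The 3 groups did not overlap, with WS1442 above and MeOH eluate below DMSO on each array. With MeOH eluate it fell by 0.82 against DMSO (SE 0.14, 95% interval -1.12 to -0.52, adjusted p = 0.00124). The difference between MeOH eluate and WS1442 was -1.30 (SE 0.13, interval -1.56 to -1.03, adjusted p = 3.51e-05), a ratio of 2.46. Both calls were kept with each array left out in turn, at adjusted p-values up to 0.0192 and 0.000361. With WS1442 the difference from DMSO was 0.48 (SE 0.14, interval 0.18 to 0.78), a ratio of 1.39, and its adjusted p was 0.0664. It was below the threshold only without WS1442 6 h replicate 1 (0.58, adjusted p = 0.0279) and with array weights (0.0481). The difference was not called in 15 of 16 fits with 1 array left out, nor with Student's t-test (adjusted p = 0.412).

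At 24 h Cyp1b1 had an intensity of 172 and 134 with DMSO, 228, 205 and 234 with WS1442 and 176, 163 and 147 with the MeOH eluate. WS1442 again lay above both other groups, while MeOH eluate overlapped with DMSO. Cyp1b1 rose with WS1442 by 0.55 on the log2 scale (SE 0.14, interval 0.25 to 0.85, adjusted p = 0.0108), a ratio of 1.46. This call rests on DMSO 24 h replicate 2, without which the difference was 0.37 (adjusted p = 0.122). MeOH eluate differed from DMSO by 0.09 (interval -0.21 to 0.39, adjusted p = 0.751). Cyp1b1 was lower with MeOH eluate than with WS1442 by -0.46 (SE 0.13, interval -0.72 to -0.19, adjusted p = 0.0255). That call was lost without WS1442 24 h replicate 1 (-0.44, adjusted p = 0.0656) or replicate 3 (-0.42, 0.109), without MeOH eluate 24 h replicate 2 (-0.46, 0.0637) or replicate 3 (-0.39, 0.114), and with no filter on dim probes (adjusted p = 0.0505).

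The effect of MeOH eluate on Cyp1b1 therefore differed between the time points. The difference from DMSO at 24 h minus that at 6 h was 0.91 (SE 0.20, adjusted p = 0.0107). Without DMSO 24 h replicate 2 it was 0.73 (adjusted p = 0.0503). For WS1442 the same value was 0.07 (interval -0.35 to 0.49, adjusted p = 0.86).

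Tiparp rose at 6 h with either treatment and fell at 24 h with MeOH eluate. At 6 h its intensity was 527 and 581 with DMSO, 639, 670 and 723 with WS1442 and 670, 689 and 651 with the MeOH eluate. All 6 treated arrays lay above both DMSO arrays, and the treatments overlapped with each other. The rise was 0.29 with WS1442 (SE 0.08, interval 0.13 to 0.45, adjusted p = 0.0412) and 0.28 with MeOH eluate (SE 0.08, interval 0.11 to 0.44, adjusted p = 0.0224), ratios of 1.22 and 1.21. MeOH eluate and WS1442 differed by -0.01 (interval -0.16 to 0.13, adjusted p = 0.924). The calls at 6 h were sensitive to single arrays. Without DMSO 6 h replicate 1 the differences were 0.22 (adjusted p = 0.44) and 0.21 (adjusted p = 0.252). The call for WS1442 was lost in 9 of 16 such fits, at adjusted p-values from 0.0279 to 0.44 over all 16, and also in other settings, among them the 75th percentile scaling and normexp background correction. That for MeOH eluate was also lost without MeOH eluate 6 h replicate 1 (0.28, adjusted p = 0.0519) or replicate 2 (0.26, 0.0576).

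At 24 h the intensity of Tiparp was 911 and 995 with DMSO, 903, 893 and 973 with WS1442 and 788, 817 and 718 with the MeOH eluate. MeOH eluate lay below both other groups on each array, and WS1442 overlapped with DMSO. Tiparp fell with MeOH eluate by 0.30 (SE 0.08, interval -0.46 to -0.14, adjusted p = 0.012). WS1442 differed from DMSO by -0.05 (interval -0.21 to 0.12, adjusted p = 0.712), and MeOH eluate from WS1442 by -0.25 (SE 0.07, interval -0.40 to -0.11, adjusted p = 0.0216). The fall against DMSO was past the threshold in all fits with 1 array left out other than those without DMSO 24 h replicate 2 (-0.24, adjusted p = 0.106) and without MeOH eluate 24 h replicate 3 (-0.25, 0.0548). The difference from WS1442 was lost without WS1442 24 h replicate 3 (-0.22, adjusted p = 0.111) and without MeOH eluate 24 h replicate 3 (-0.20, 0.11).

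The effect on Tiparp at 24 h minus that at 6 h was -0.58 for MeOH eluate (SE 0.11, adjusted p = 0.00376), and this was called with each array left out in turn, at adjusted p-values up to 0.03. For WS1442 it was -0.34 (SE 0.11, adjusted p = 0.0554).

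Ahr, the receptor gene, was higher with both treatments at 24 h. Its intensity there was 36.9 and 70.1 with DMSO, 123, 111 and 125 with WS1442 and 122, 107 and 106 with the MeOH eluate. All 6 treated arrays lay above both DMSO arrays. On the log2 scale the DMSO arrays differed more from each other than the upper one did from the lowest treated array. The rise was 1.23 with WS1442 (SE 0.20, interval 0.79 to 1.67, adjusted p = 0.000661) and 1.13 with MeOH eluate (SE 0.20, interval 0.69 to 1.57, adjusted p = 0.00123), ratios of 2.35 and 2.19. Its size depended on the DMSO arrays. Without DMSO 24 h replicate 1 the differences were 0.77 and 0.67 and without replicate 2 they were 1.69 and 1.59. Neither call was lost with any 1 array left out, at adjusted p-values up to 0.0109 and 0.0224. The treatments differed by -0.10 (interval -0.49 to 0.29, adjusted p = 0.79).

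At 6 h the intensity of Ahr was 80.9 and 84.4 with DMSO, 80.04, 107 and 111 with WS1442 and 91.8, 103 and 107 with the MeOH eluate. WS1442 overlapped with DMSO, and MeOH eluate lay above it. The differences from DMSO were 0.25 (interval -0.19 to 0.69, adjusted p = 0.584) and 0.28 (interval -0.15 to 0.72, adjusted p = 0.396). The effect of WS1442 at 24 h minus that at 6 h was 0.98 (SE 0.29, adjusted p = 0.0411). Without DMSO 24 h replicate 1 it was 0.52 (adjusted p = 0.193), without DMSO 24 h replicate 2 it was 1.44, and the call was lost in 11 of the 16 fits with 1 array left out. For MeOH eluate it was 0.85 (SE 0.29, adjusted p = 0.1). The second Ahr probe, named after an Ensembl transcript, was above background on 3 of 16 arrays and had intensities of 2.50 to 37.4, too few for a test.

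Arnt, the partner of the receptor, showed no called difference. Its brighter probe read 224 and 215 with DMSO, 247, 223 and 262 with WS1442 and 223, 204 and 28.5 with the MeOH eluate at 6 h, and 239 to 292 on the 8 arrays of 24 h. A single array, MeOH eluate 6 h replicate 3, lay far below all others. The second Arnt probe did not repeat this, with 64.5, 87.1 and 91.4 on the 3 arrays with MeOH eluate at 6 h and 76.7 to 99.8 on the other 13 arrays. With the low array included, the brighter probe gave a difference of -1.01 (SE 0.57, adjusted p = 0.266) between MeOH eluate and DMSO at 6 h, and the dimmer probe gave -0.06 (interval -0.39 to 0.27, adjusted p = 0.855). At 24 h the differences of both probes from DMSO lay between -0.07 and 0.06. The intervals of the brighter probe were wide, -1.27 to 1.18 with WS1442 and -1.17 to 1.28 with MeOH eluate. Those of the dimmer probe were -0.40 to 0.26 and -0.36 to 0.31. The third Arnt probe was above background on 0 of 16 arrays.

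Ahrr, the repressor, read 521 and 425 with DMSO at 6 h, 344, 351 and 353 with WS1442 and 355, 381 and 377 with the MeOH eluate. All 6 treated arrays lay below both DMSO arrays, though the share of all genes that part in this way was not counted. The differences of -0.43 (SE 0.18, interval -0.81 to -0.05, adjusted p = 0.196) and -0.34 (SE 0.18, interval -0.72 to 0.03, adjusted p = 0.211) did not pass. The second of them passed when only the arrays of 6 h were fitted (adjusted p = 0.0427). At 24 h Ahrr read 316 and 282 with DMSO, 223, 324 and 244 with WS1442 and 213, 349 and 240 with the MeOH eluate, groups that overlapped with differences from DMSO of -0.20 (interval -0.57 to 0.18) and -0.19 (interval -0.57 to 0.19).

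Cyp1a1 was not well above background on any of the 16 arrays, so no level, fold or test is given. Its readings at 6 h were 2.54 and 3.51 with DMSO, 9.08, 7.29 and 5.42 with WS1442 and 3.65, 8.84 and 4.34 with the MeOH eluate. Those of the treated arrays were all above those with DMSO, but within the range of signals that the scanner did not separate from background. At 24 h they were 2.66 and 2.84, 2.52 to 4.04, and 2.67 to 5.37, and the groups overlapped.

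**Figure D2:**
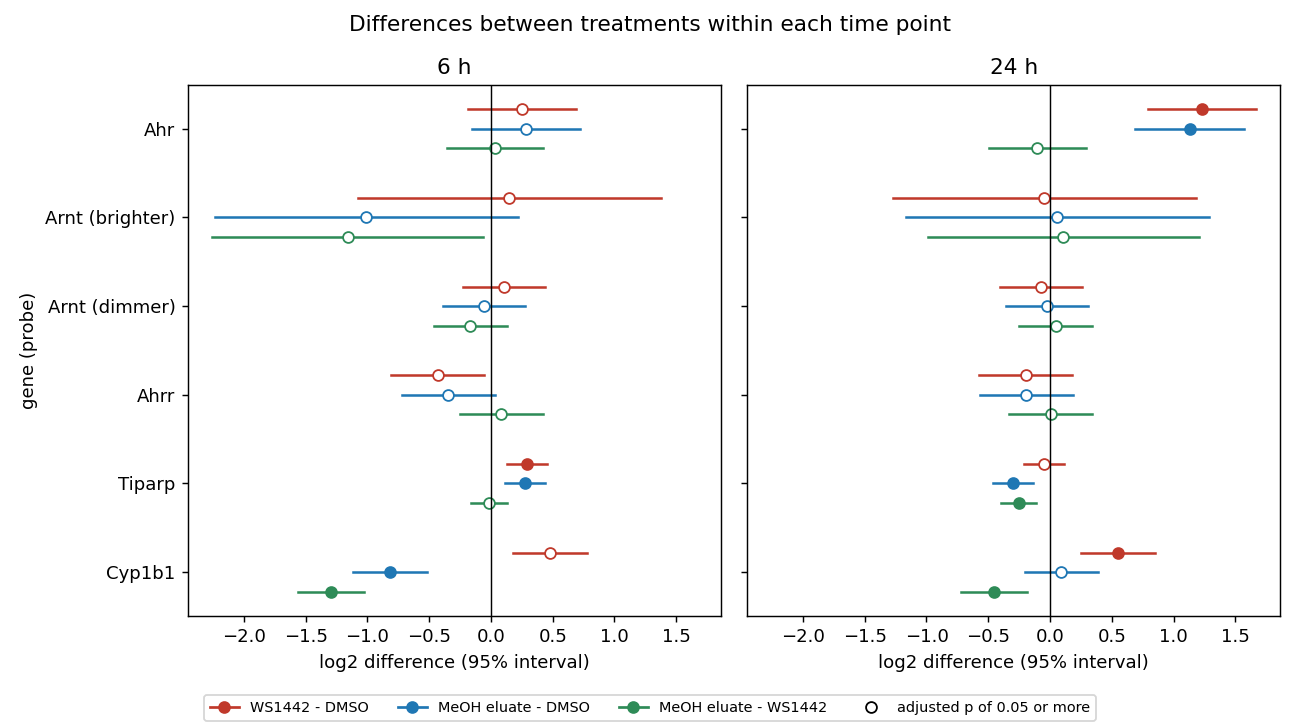
Log2 differences between treatments within 6 h (left) and 24 h (right) for the 6 tested probes, with 95% intervals. Filled points had an adjusted p under 0.05 and open points did not; Cyp1b1 at 6 h has points on opposite sides of 0 for WS1442 and MeOH eluate, and Ahr has its largest differences at 24 h.

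Counted over the 5 genes with a tested probe, each by its brightest probe, 1 was called at 6 h with WS1442 (Tiparp), where 5.07% of all 31076 genes were called. With MeOH eluate at 6 h 2 were called (Cyp1b1 and Tiparp), beside 16.8% of all genes, and between the treatments 1 (Cyp1b1), beside 12.1%. At 24 h 2 were called with WS1442 (Ahr and Cyp1b1), beside 24.4%, and 2 with MeOH eluate (Ahr and Tiparp), beside 17.8%. Between the treatments at 24 h 2 were called (Cyp1b1 and Tiparp), beside 14.3%. For the effect at 24 h minus that at 6 h, 1 gene was called for WS1442 (Ahr), beside 12.2%, and 2 for MeOH eluate (Cyp1b1 and Tiparp), beside 7.42%. With 5 genes, 1 gene more or less moves the share by more than most of these percentages, so the counts do not set the genes apart from the rest. At 6 h with MeOH eluate the tested target genes did not all move in 1 direction. Cyp1b1 fell and Tiparp rose, and Ahrr read -0.34 without a call. With WS1442 at 6 h Cyp1b1 (0.48, not called) and Tiparp (0.29, called) both read above DMSO, and Ahrr read -0.43 without a call.

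The genes whose pattern over the 16 arrays was most like that of each called member, after subtracting the mean of the arrays of the same time point, were searched among 17000 genes with a symbol. For Ahr they were Scoc (r = 0.951), Amn1 (0.944) and Mdm2 (0.940), for Tiparp Ndrg2 (0.953), Calhm2 (0.940) and Egln3 (0.938), and for Cyp1b1 Tmem201 (0.959), St7l (0.935) and Ddx56 (0.932). These correlations describe likeness over arrays that share their treatment groups. Of these genes, Mdm2, which encodes the ligase that degrades p53, was 0.95 above DMSO with WS1442 and 1.102 above it with MeOH eluate at 24 h on the log2 scale. Egln3, an oxygen sensor that marks hypoxia-inducible factors for degradation, was 0.41 and 0.45 above DMSO at 6 h and -0.19 and -0.96 at 24 h.

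Other genes of the pathway were read from 4 lists with 28 genes, of which 25 had a probe and 19 were tested. The methods name no test for the arrays and no adjustment. Student's t-test called 0 of the 19 in the 6 treatment comparisons after Benjamini-Hochberg adjustment. At an unadjusted p under 0.05 it passed 2 to 6 of the 19 per comparison. The calls below are those of limma. In the receptor complex all 4 genes were tested and 0 passed against DMSO at 6 h. Of all genes, 5.07% were called there with WS1442 and 16.8% with MeOH eluate. At an unadjusted p under 0.05 there were 0 of the 4 with WS1442 and 1 with MeOH eluate. At 24 h 1 of the 4 was called lower with each treatment, beside 24.4% of all genes with WS1442 and 17.8% with MeOH eluate. With WS1442 it was Ptges3 (-0.22, SE 0.08, adjusted p = 0.048), a call lost in 13 of 16 fits with 1 array left out. Hsp90ab1, the chaperone itself, was lower by -0.16 with MeOH eluate than with WS1442 at 6 h (adjusted p = 0.0335), a call lost in 5 such fits. The median difference of the complex lay between -0.06 and 0.05 over the 6 treatment comparisons, and that of all genes between -0.02 and 0.04.

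All 8 bHLH-PAS relatives were tested, though not all were well above background throughout. Sim2 was so on only 6 of 16 arrays, with group means from 21.2 (DMSO 6 h) to 4.34 (WS1442 24 h). Sim1 was so on 14 and Clock on 15. Sim2 counts in the numbers and medians of this list, although its readings near background carry no level. In limma 0 of the 8 passed with WS1442 at 6 h, beside 5.07% of all genes called in either direction. With MeOH eluate at 6 h 1 passed, beside 16.8%. At an unadjusted p under 0.05 there were 1 with WS1442 and 3 with MeOH eluate. The call with MeOH eluate was Npas2 (0.37, SE 0.12, adjusted p = 0.0469, lost in 11 of 16 fits with 1 array left out). At 24 h 3 of the 8 rose with WS1442, beside 24.4% of all genes called in either direction, and 1 of the 8 with MeOH eluate, beside 17.8%. Arnt2, which can replace Arnt as a partner, rose with both, by 0.38 (SE 0.09, adjusted p = 0.00692) and 0.58 (SE 0.09, adjusted p = 0.00036), and these calls were kept with each array left out in turn. Npas2, a relative of the circadian Clock, rose with WS1442 by 0.53 (SE 0.12, adjusted p = 0.00486) and was lower with MeOH eluate than with WS1442 by -0.46 (SE 0.11, adjusted p = 0.0104). Without DMSO 24 h replicate 1 the rise was 0.47 (adjusted p = 0.0634). The difference between treatments was -0.42 (adjusted p = 0.0591) without WS1442 24 h replicate 3 and -0.39 (0.0511) without MeOH eluate 24 h replicate 2. Epas1, a hypoxia-inducible factor, rose with WS1442 by 0.24 (SE 0.08, adjusted p = 0.031), which was lost in 3 of the 16 fits and with the 75th percentile scaling (0.16, adjusted p = 0.116), no filter on dim probes (0.0628), eBayes without trend (0.0686), array weights (0.0648) and the replicate block (0.059). Epas1 was lower with MeOH eluate than with WS1442 by -0.28 (SE 0.07, adjusted p = 0.0135), a call lost in 2 of the 16 fits. The median of the relatives at 24 h was 0.16 with WS1442 and 0.11 with MeOH eluate, against 0.04 and 0.01 over all genes.

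Among 12 further target enzymes and factors, 10 had a probe and 5 were tested. Cyp1a2, Ugt1a6b, Gsta2, Xdh and Ereg were well above background on 0 of 16 arrays. With WS1442 at 6 h 3 of the 5 rose, beside 5.07% of all genes called in either direction. These were Cyp2s1, a cytochrome P450 (0.48, SE 0.07, adjusted p = 0.00262), Nfe2l2, the master regulator of antioxidant genes (0.37, SE 0.06, adjusted p = 0.00526), and Nqo1, the quinone reductase that both Nfe2l2 and the receptor control (0.35, SE 0.09, adjusted p = 0.035). With MeOH eluate at 6 h 2 of the 5 rose, beside 16.8%, Cyp2s1 by 0.39 (SE 0.07, adjusted p = 0.00212) and Nfe2l2 by 0.28 (SE 0.06, adjusted p = 0.00728). Without DMSO 6 h replicate 1 the calls of all 3 genes with WS1442 were lost, at 0.44 (adjusted p = 0.0509), 0.38 (0.0577) and 0.29 (0.384), as was that of Nfe2l2 with MeOH eluate (0.29, 0.0545). Nqo1 with WS1442 was lost in 4 of 16 such fits in all, and also with the 75th percentile scaling (adjusted p = 0.0571), the arrays of 6 h alone (0.0874) and the replicate number as a block (0.115). Nfe2l2 with MeOH eluate was lost also without DMSO 6 h replicate 2 (0.28, adjusted p = 0.0503). The medians of the 5 genes at 6 h were 0.35 and 0.17, against -0.0057 and -0.0043 over all genes.

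Nqo1 differed between the treatments at 6 h in the same direction as Cyp1b1. Its mean intensity was 161 with DMSO, 205 with WS1442 and 144 with the MeOH eluate, and it was lower with MeOH eluate than with WS1442 by -0.51 (SE 0.08, adjusted p = 0.00143), a call kept with each array left out in turn. Against DMSO, MeOH eluate gave no call. At 24 h the means were 140.5, 152 and 152, and no difference was called.

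With MeOH eluate Cyp2s1 was up at 6 h and down at 24 h, as Tiparp was, and with WS1442 Cyp2s1 fell at 24 h while Tiparp gave no call. Its mean intensity at 24 h was 1333 with DMSO, 1089 with WS1442 and 733.8 with the MeOH eluate. It fell by 0.86 with MeOH eluate (SE 0.07, adjusted p = 1.58e-06) and by 0.29 with WS1442 (SE 0.07, adjusted p = 0.00943), and was lower with MeOH eluate than with WS1442 by -0.57 (SE 0.07, adjusted p = 0.000149). Without DMSO 24 h replicate 2 the fall with WS1442 was -0.22 (adjusted p = 0.0971), and the other calls of Cyp2s1 at 24 h were kept with each array left out in turn. Its effect at 24 h minus that at 6 h was -1.26 for MeOH eluate (SE 0.10) and -0.78 for WS1442 (SE 0.10). Aldh3a1, an aldehyde dehydrogenase, had means of 155 with DMSO, 228 with WS1442 and 156 with the MeOH eluate at 24 h. It rose with WS1442 by 0.56 (SE 0.13, adjusted p = 0.00608) and was lower with MeOH eluate than with WS1442 by -0.54 (SE 0.12, adjusted p = 0.00648), both kept with each array left out in turn. This is the pattern of Cyp1b1 at 24 h, higher with the extract and close to DMSO with the eluate.

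Of 4 enzymes that make receptor ligands from tryptophan, Ido1 and Ido2 were tested. In limma 0 of them passed in the 6 treatment comparisons, also at an unadjusted p under 0.05. Both were dim, so the missing calls say little. Ido1 was well above background on 11 of 16 arrays, with group means of 11.6 to 17.2. Ido2 was so on 16 arrays, with group means of 17.9 to 42. Tdo2 was above background on 1 of 16 arrays, and Il4i1 had no probe.

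**Figure D3:**
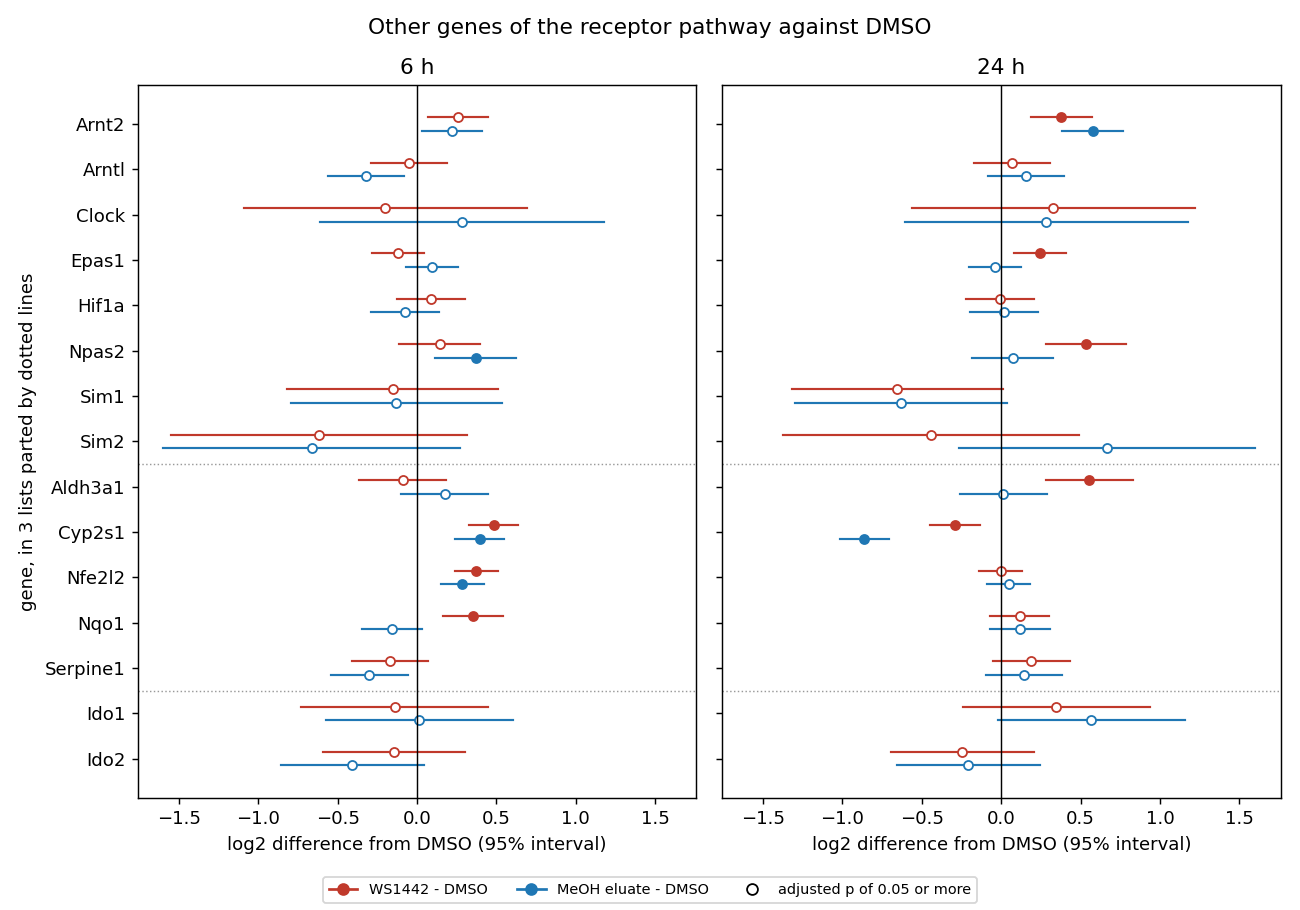
Log2 differences from DMSO with 95% intervals at 6 h (left) and 24 h (right) for 15 tested genes of 3 lists, from the bHLH-PAS relatives at the top to the ligand-making enzymes at the bottom. Filled points had an adjusted p under 0.05; Cyp2s1 lies right of 0 at 6 h and left of it at 24 h with both treatments, and Aldh3a1 and Npas2 lie right of 0 at 24 h with WS1442.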

How the data were processed

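Labelled cRNA was hybridised to 1-colour Agilent arrays. As deposited, the scanner's intensity per spot (Feature Extraction 11.5.1.1, design build mm9) was background corrected within the array. The authors' second table holds intensities on a linear scale after quantile normalization over all arrays, and each of its 16 columns correlated best with its own array. The 96 values of the 6 tested member probes lay within 0.012 (log2) of that table. A whole read or molecule count does not exist for arrays, so the number of arrays limits the precision.

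Here, spots marked non-uniform were left out (3 to 25 per array, so that 25 tested probes lack a value on some array), log2 intensities were quantile normalized, replicate spots averaged, and only probes well above background throughout at least 1 group were kept. With limma 3.58.1 (R 4.3.3), 1 mean per group was fitted, with eBayes with trend, and p-values were adjusted over 36718 probes. Genes were counted by their brightest kept probe. Of 60273 gene probes, 31064 were named through RefSeq by accession, 11431 by the file only and 17778 not at all. Tables and figures were made in Python 3.11.15. The procedure was tested on simulated data with larger differences than most of those called here, so that test does not bear on the smaller ones.

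The members and lists were chosen with earlier results of these data known. Named are the members, list genes that were called or not above background, and the 3 genes most like each called member. Alternatives covered scaling (75th percentile), background correction (normexp, offset 50), the authors' table, the filter, 1 probe per gene, the variance prior, array weights, arrays of 1 time point, a replicate block, Student's t-test (the methods' t-test) and each array left out. They were applied to the pathway lists after the data were seen. One gene of the receptor complex list is counted but not reported here by name.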

Additional observations from a re-analysis of the deposited data

Results flagged for a closer look

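For 3 member genes the effect of a treatment differed between 6 h and 24 h, tested as the difference of the log2 differences from DMSO. For Ahr with WS1442 it was 0.98 (SE 0.29, adjusted p = 0.0411), higher at 24 h, where the DMSO arrays read 36.9 and 70.1. For Tiparp with MeOH eluate it was -0.58 (SE 0.11, adjusted p = 0.00376), with a rise at 6 h and a fall at 24 h. For Cyp1b1 with MeOH eluate it was 0.91 (SE 0.20, adjusted p = 0.0107), with a fall at 6 h and no called difference at 24 h. The time points lie on different slides, and their part in these values cannot be told apart, although each effect was taken against DMSO of the same slide.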

How the results depend on the processing

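Counts of called genes are small, and single settings moved them. Of the member genes with WS1442 at 6 h, 1 was called as reported and 2 with array weights. The count was 0 with the 75th percentile scaling, normexp, no filter on dim probes and eBayes without trend. It was also 0 with the arrays of the time point alone, the replicate block and Student's t-test. With MeOH eluate at 6 h 2 became 1 with the 75th percentile scaling and the block. The 2 called between treatments at 24 h became 1 with no filter, and the 1 called for the WS1442 effect between time points became 0 with normexp, no filter, no trend and the block. Student's t-test had 2 against 3 samples for DMSO and 3 against 3 between treatments. After Benjamini-Hochberg adjustment it called 0 member genes and 0 pathway list genes in all 6 treatment comparisons. The methods name no test for the arrays and do not state this adjustment. Their threshold against DMSO was taken as an unadjusted p under 0.05 with a log2 difference past 1 in either direction. At this threshold, counted after the data were seen, Student's t-test passed Ahr with both treatments at 24 h. Against DMSO it passed 0 of the other member and pathway list genes.

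Of the pathway list genes between treatments at 6 h, 2 became 1 with the 75th percentile scaling, no filter, no trend and the arrays of the time point alone, and of those with MeOH eluate at 6 h 3 became 5 with array weights. For the WS1442 effect between time points 5 became 3 with normexp and array weights, 2 with no filter and no trend, and 1 with the block. Single calls of Hsp90ab1, Ptges3 and Npas2 (MeOH eluate at 6 h) were also lost in some of these settings. The authors' table and 1 probe per gene in the fit moved none of these counts by over 1.5 times.

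With each array left out in turn, the member counts ranged from 0 to 2 (WS1442 at 6 h), 1 to 2 (MeOH eluate at 6 h), 1 to 2 (WS1442 at 24 h), 1 to 2 (MeOH eluate at 24 h), 0 to 2 (between treatments at 24 h) and 0 to 1 (WS1442 effect between time points). The pathway list counts ranged from 0 to 3, 1 to 5 and 1 to 4 in the comparisons at 6 h, from 3 to 7, 2 to 4 and 2 to 6 at 24 h, and from 1 to 5 and 1 to 2 for the effects between time points.

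Signs turned only in differences near 0 that were not called in any of these settings. Between treatments at 6 h Ahr read -0.00092 with normexp, -0.0201 with array weights and -0.11 to 0.12 with 1 array left out, and Tiparp 0.0097 with normexp and -0.0557 to 0.0339 with 1 array left out. Between treatments at 24 h Ahrr read -0.0221 with array weights and -0.20 to 0.16 with 1 array left out. The other ranges with 1 array left out were -0.0553 to 0.30 for the MeOH eluate effect between time points on Ahrr, -0.11 to 0.0177 for Tiparp with WS1442 at 24 h, -0.0859 to 0.27 for Cyp1b1 with MeOH eluate at 24 h, -0.11 to 0.25 for the WS1442 effect between time points on Cyp1b1, and -0.14 to 0.0077 for the brighter Arnt probe with WS1442 at 24 h. For the dimmer Arnt probe they were -0.0101 to 0.23 (WS1442 at 6 h), -0.18 to 0.10 (MeOH eluate at 6 h), -0.22 to 0.0787 (WS1442 at 24 h), -0.17 to 0.12 (MeOH eluate at 24 h), -0.0369 to 0.14 (between treatments at 24 h) and -0.12 to 0.18 (MeOH eluate effect between time points).

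Replicates with the same number share only a number, as their deviations from the group means correlated from -0.224 to 0.284 within a time point. With the replicate block, Tiparp at 6 h had adjusted p-values of 0.139 with WS1442 and 0.073 with MeOH eluate, and the WS1442 effect on Ahr between time points one of 0.0772, beside the counts above. Where the cause of a change with a setting is not part of that setting, it was not tested. Cyp1a1 and the other probes near background carry no level at this signal.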
